A study of Mus musculus with 6 samples.

Results

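AP-1 is a family of dimeric transcription factors, and the 7 genes described here, Fos, Fosb, Fosl2, Jun, Junb, Jund and Atf3, are the entries with these names in both deposited tables, 7 of 23235 genes. All 7 were tested by the authors in both comparisons. The data are RNA sequencing of 6 libraries from mouse neurons cultured from cortex and hippocampus, 2 of HDAC2 knockdown, 2 of Sp3 knockdown and 2 of control. Neurons were taken from embryos at day 15, grown for 17 days, given 1 uM AraC (cytosine arabinoside, which blocks dividing cells) on day 5 and transduced with short hairpin RNA lentivirus on day 12. HDAC2 knockdown neurons received hairpins against Hdac2, a class I histone deacetylase, and Sp3 knockdown neurons received hairpins against Sp3, a zinc finger factor of GC-rich promoter elements. The sources used here give no strain, genotype, stimulation before harvest or hairpin of the control cultures. The series asks whether HDAC2 and Sp3 act together on a set of genes, and the comparisons below are each knockdown against control and one knockdown against the other.

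AP-1 proteins bind DNA as dimers through a basic region and a leucine zipper (bZIP). Fos family proteins pair with Jun family proteins, while Jun proteins can also pair with each other. In neurons Fos, Fosb and Junb are among the immediate early genes. Their transcription rises within minutes of synaptic activity through CREB and serum response factor bound near their start sites. Jund is present at a steadier level in most cells, and Atf3 is best known as a gene induced by stress and axon injury.

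The values are FPKM (fragments per kilobase of transcript, scaled to the mapped fragments of a library), a scale corrected for transcript length on which genes can be compared with each other. Each group has 1 authors' FPKM and no value per library, so no standard deviation can be given. Standard errors are those implied by the authors' test statistic, read depth is unknown, and the labels do not say whether the libraries of one group are separate cultures, so the p-values may measure technical spread. The whole distribution was shifted, by a median log2 fold change of 0.32 in HDAC2 knockdown and -0.13 in Sp3 knockdown over genes of at least 1 FPKM, and each change is given after subtracting that median (centred), as log2 ± standard error, beside the deposited q. A centred value is said to pass where its normal two-sided p, adjusted by Benjamini-Hochberg over all tested genes of the table, is under 0.05. Hdac2 stood at 12.3 FPKM in HDAC2 knockdown and 49.4 FPKM in control in the authors' deposited table, and Sp3 at 5.82 FPKM in Sp3 knockdown and 15.5 FPKM in control in the authors' deposited table, so each targeted gene was lower in the libraries named for it. Sp3 was higher in HDAC2 knockdown than in control (0.47 ± 0.089), and Hdac2 was called lower in Sp3 knockdown, at 38.8 FPKM, in the authors' deposited table (q = 0.00598) but not after centring (-0.22 ± 0.11). Both comparisons use the same control libraries.

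The promoters are of the 4 members called lower in both knockdowns (Fos, Fosb, Junb and Atf3), of Jun and of Fosl2. Jun was called lower in Sp3 knockdown only, and Fosl2 was not called in either deposited table. This grouping was made from the calls themselves, so the motifs are no test of it. Sequences are the 250 bases before the RefSeq start site in GRCm38.p6, on the strand of the gene, and capitals mark motif matches.
Fos (chr12:85473640-85473889, plus strand): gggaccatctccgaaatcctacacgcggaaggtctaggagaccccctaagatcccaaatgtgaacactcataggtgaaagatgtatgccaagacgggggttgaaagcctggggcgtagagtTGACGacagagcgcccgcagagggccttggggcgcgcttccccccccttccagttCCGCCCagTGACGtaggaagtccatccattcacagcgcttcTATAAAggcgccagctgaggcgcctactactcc
Fosb (chr7:19310046-19310295, minus strand): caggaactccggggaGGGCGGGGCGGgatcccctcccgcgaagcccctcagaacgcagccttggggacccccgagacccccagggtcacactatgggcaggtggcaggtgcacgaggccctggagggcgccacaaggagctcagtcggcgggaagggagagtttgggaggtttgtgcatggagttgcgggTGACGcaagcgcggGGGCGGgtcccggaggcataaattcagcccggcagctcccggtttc
Junb (chr8:84978749-84978998, minus strand): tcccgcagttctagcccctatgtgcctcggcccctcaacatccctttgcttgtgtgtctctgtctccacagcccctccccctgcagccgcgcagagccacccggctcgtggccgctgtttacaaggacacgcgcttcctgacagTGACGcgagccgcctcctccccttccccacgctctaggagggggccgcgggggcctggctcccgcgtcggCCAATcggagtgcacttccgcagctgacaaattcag
Atf3 (chr1:191183334-191183583, minus strand): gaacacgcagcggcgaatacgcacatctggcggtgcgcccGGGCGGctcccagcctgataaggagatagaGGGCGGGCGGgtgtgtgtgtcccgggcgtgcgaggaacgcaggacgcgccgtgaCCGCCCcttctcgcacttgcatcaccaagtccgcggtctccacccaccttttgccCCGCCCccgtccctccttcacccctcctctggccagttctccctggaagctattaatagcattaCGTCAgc
Jun (chr4:95052223-95052472, minus strand): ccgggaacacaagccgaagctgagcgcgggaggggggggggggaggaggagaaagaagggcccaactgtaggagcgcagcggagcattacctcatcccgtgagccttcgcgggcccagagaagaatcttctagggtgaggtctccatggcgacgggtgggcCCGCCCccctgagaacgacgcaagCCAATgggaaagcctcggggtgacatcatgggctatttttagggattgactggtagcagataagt
Fosl2 (chr5:32136222-32136471, plus strand): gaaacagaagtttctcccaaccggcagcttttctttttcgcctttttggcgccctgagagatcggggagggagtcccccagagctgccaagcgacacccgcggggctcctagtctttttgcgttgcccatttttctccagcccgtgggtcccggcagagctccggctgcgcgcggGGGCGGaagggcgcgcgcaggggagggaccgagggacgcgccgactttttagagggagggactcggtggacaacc

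Motifs were searched on both strands over 300 bases, from 250 before to 50 after the start site, and all 7 members matched the RefSeq table. The core of the cAMP response element, TGACG, to which CREB family proteins bind, was found in Fos at -129 and -66, in Fosb at -60, in Junb at -106 and, on the other strand, in Atf3 at -3, the positions being those of the match's first base in its own direction. It was not found in the windows of Jun, Jund or Fosl2, and 20.9% of all 32544 promoter windows hold it. The GC box GGGCGG, a site of the Sp family, was found in 5 windows (Atf3 with 5 matches, Fosb with 3, and Fos, Jun and Fosl2 with 1 each), against 35.9% of all windows. Adjoining GC boxes overlap in Fosb and in Atf3. Among the windows shown, the share of G and C bases ran from 58.7% in Fos to 68.3% in Fosb, and it was 46.7% in Jund. The median over all 32544 windows was 53%. The shares of windows holding a motif are not adjusted for this base content, so they are no measure of an excess in these members. CCAAT was found in Atf3, Jun and Junb (37.4% of all windows), and TATAAA in Fos at -33 and in Junb at 1, which is the RefSeq start itself and lies outside the stretch printed (13.6% of all windows). The full cAMP response element TGACGTCA, which contains TGACG, the AP-1 site TGAGTCA and the CArG box of serum response elements were found in none of the 7 windows, against 1.80%, 5.19% and 1.64% of all windows. The Jund window held none of the motifs searched and is not shown. Only these patterns were searched, so a site that differs by a base or lies outside the 300 bases was not counted. An example is tgacatca in the Jun sequence above, which differs from TGACGTCA by a base. A match is a string of letters and not a measured binding site, and none of these promoters was assayed here.

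**Figure D1:**
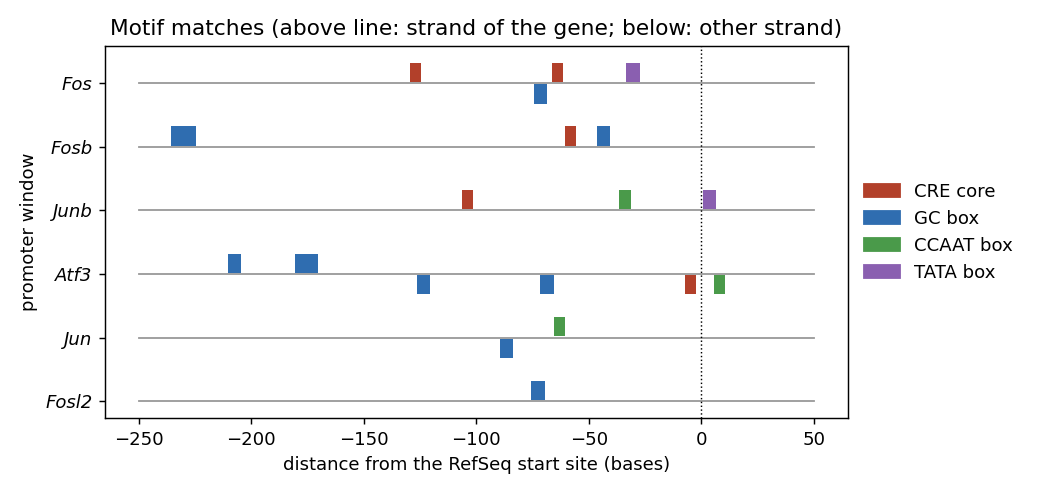
Motif matches in 6 promoter windows by distance from the RefSeq start site in bases, with one line per gene, boxes above the line on the strand of the gene and boxes below it on the other strand. TGACG cores lie in the windows of Fos, Fosb, Junb and Atf3, and GC boxes in 5 of the 6 windows shown.

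The members spanned a wide range of levels. From high to low FPKM the order was Jund, Jun, Fos, Fosl2, Junb, Atf3 and Fosb in HDAC2 knockdown, Jund, Junb, Fosl2, Fos, Jun, Atf3 and Fosb in Sp3 knockdown, and Junb, Fos, Jun, Jund, Fosl2, Fosb and Atf3 in control. Without values per library, whether neighbours in these orders differ beyond their spread cannot be tested. Fos, Jun, Junb and Jund each lay above 88.1% or more of tested genes in control, Fosl2 above 77.9%, Fosb above 41.1% and Atf3 above 29.9%.

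**Figure D2:**
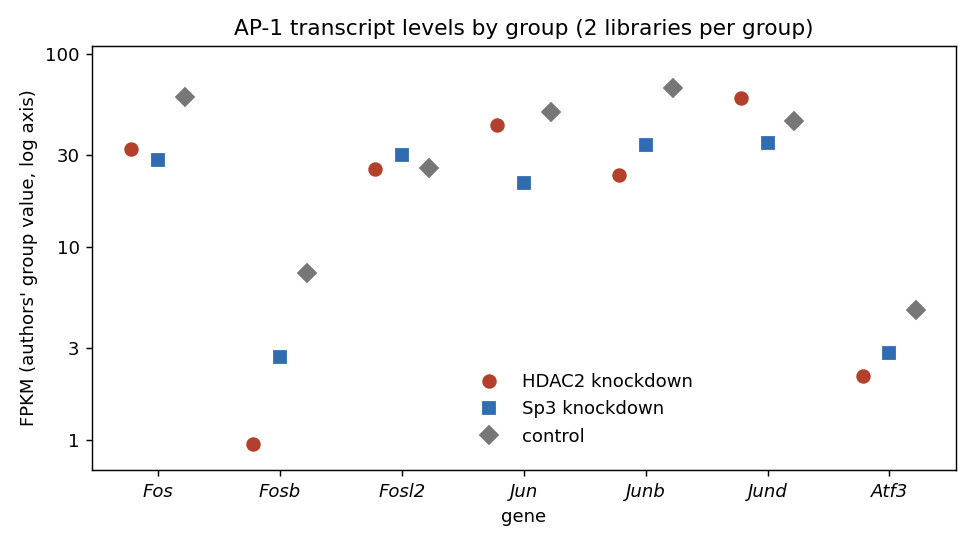
Level of each AP-1 gene as the authors' FPKM on a log axis, with red circles for HDAC2 knockdown, blue squares for Sp3 knockdown and grey diamonds for control, 1 value per group. Fosb spans 0.953 to 7.32 FPKM across the groups, whereas Fosl2 spans 25.3 to 29.97 FPKM.

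Fosb, Junb, Fos and Atf3 were lower in HDAC2 knockdown than in control, whereas Fosl2, Jun and Jund did not pass. In the authors' deposited table, 4 of 7 members were called lower and 0 higher at q under 0.05, where 3.6% of 13569 tested genes were called lower and 24.6% higher. After centring 4 were again lower and 0 higher, where 7.59% of 13481 genes were lower and 10.2% higher. No member was higher at an unadjusted p under 0.05 either (0 of 7). The median of the 7 centred values was -1.20, against -0.0044 over all tested genes, and it was -0.89 before centring. With a t distribution of 2 degrees of freedom in place of the normal, 0 members were called, and 2 were at an unadjusted p under 0.05. Over all genes that setting called 81, all at 0 FPKM in a group, so it called no gene measured in both groups. Shares of all genes at an unadjusted p are not given here.

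In Sp3 knockdown Jun, Fosb, Fos, Junb, Atf3 and Jund were called lower than control, and Fosl2 was not called. The authors' deposited table thus had 6 of 7 members lower and 0 higher, where 26.1% of 13619 tested genes were called lower and 13.2% higher. After centring 5 were lower and 1 higher, where 17.6% of 13539 genes were lower and 20.2% higher. At an unadjusted p under 0.05 the deposited test also had 0 members higher. The median centred value was -0.85, or -0.98 before centring, against -0.0016 over all tested genes. With a t distribution of 2 degrees of freedom 0 members were called here too, and 4 were at an unadjusted p under 0.05. Over all genes that setting called 73, again all at 0 FPKM in a group. Shares of all genes at an unadjusted p are not given for this comparison either. The median standard error over genes of at least 1 FPKM in either group was 0.14 in the Sp3 comparison and 0.26 in the HDAC2 comparison.

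**Figure D3:**
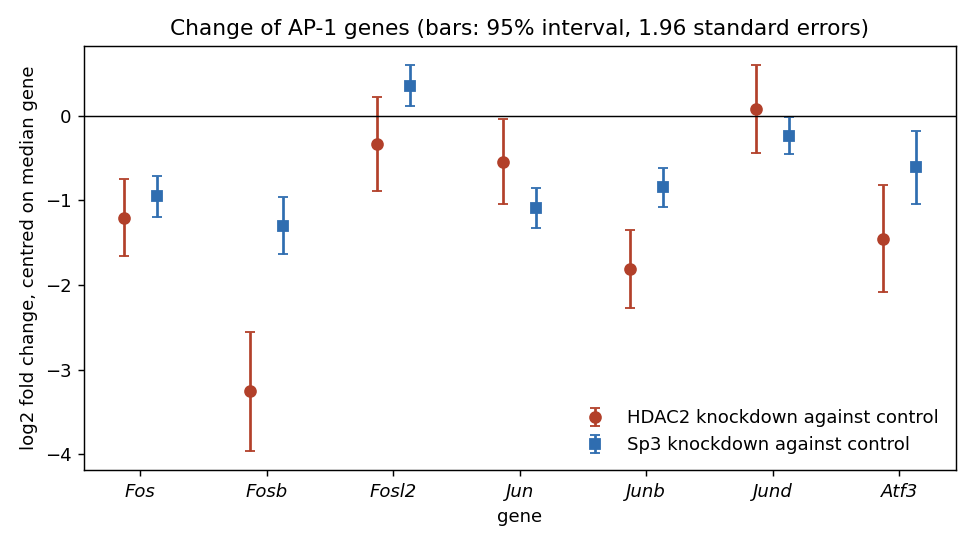
Centred log2 fold change of each AP-1 gene against control, red circles for HDAC2 knockdown and blue squares for Sp3 knockdown, with bars for the 95% interval. Fosb lies lowest in both comparisons, at -3.26 in HDAC2 knockdown and -1.30 in Sp3 knockdown, and Jund in HDAC2 knockdown has an interval from -0.44 to 0.60.

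In the Fos family, Fos encodes c-Fos, the most widely used marker of recently active neurons. The gene (mm9 chr12:86814850-86818219) measured 32.3 FPKM in HDAC2 knockdown, 28.2 FPKM in Sp3 knockdown and 59.8 FPKM in control in the authors' deposited tables. Control was the highest of the 3 groups, and the knockdowns lay close together, at 54.0% of control in HDAC2 knockdown and 47.1% in Sp3 knockdown. Fos fell in HDAC2 knockdown (-1.20 ± 0.23, q = 0.00104 in the authors' deposited table) and in Sp3 knockdown (-0.95 ± 0.12, deposited q listed as 0).

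Fosb, whose protein and its shortened splice form ΔFosB are known from repeated neuronal stimulation (mm9 chr7:19888044-19895394), measured 0.953 FPKM in HDAC2 knockdown, 2.71 FPKM in Sp3 knockdown and 7.32 FPKM in control in the authors' deposited tables. The 3 groups are well separated, and HDAC2 knockdown was lowest at 13.0% of control. Fosb fell in HDAC2 knockdown (-3.26 ± 0.36, q = 1.26e-14 in the authors' deposited table) and by less in Sp3 knockdown (-1.30 ± 0.17, deposited q listed as 0), at 37.1% of control. Of 13481 genes, 3 had a lower centred value than Fosb in HDAC2 knockdown, and 236 of 13539 did in Sp3 knockdown. The fold in HDAC2 knockdown rests on a low level, and with 1 FPKM added to each value it was -2.37. Splice forms are not separated in these gene-level values.

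Fosl2 encodes Fra-2, a Fos family protein without a strong activation domain. The gene (mm9 chr5:32438844-32460212) measured 25.3 FPKM in HDAC2 knockdown, 29.97 FPKM in Sp3 knockdown and 25.7 FPKM in control in the authors' deposited tables, the smallest ratio of highest to lowest group among the 7 genes. Its value in HDAC2 knockdown was -0.34 ± 0.28 (95% interval -0.89 to 0.22, q = 0.962 in the authors' deposited table). In Sp3 knockdown Fosl2 was 0.36 ± 0.12 (95% interval 0.11 to 0.60), which passed after centring, while the q was 0.154 in the authors' deposited table at an uncentred 0.22.

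In the Jun family, Jun encodes c-Jun, the main target of Jun N-terminal kinase (JNK). The gene (mm9 chr4:94715726-94718913) measured 43.0 FPKM in HDAC2 knockdown, 21.5 FPKM in Sp3 knockdown and 50.3 FPKM in control in the authors' deposited tables. The level was 85.5% of control in HDAC2 knockdown and 42.8% in Sp3 knockdown, before centring. Jun fell in Sp3 knockdown (-1.09 ± 0.12, q listed as 0 in the authors' deposited table). Its value in HDAC2 knockdown did not pass (-0.54 ± 0.26, 95% interval -1.05 to -0.035, q = 0.528 in the authors' deposited table).

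Junb, an immediate early Jun gene whose protein activates less strongly than c-Jun, was the most abundant member in control. The gene (mm9 chr8:87500807-87502647) measured 23.6 FPKM in HDAC2 knockdown, 33.9 FPKM in Sp3 knockdown and 66.7 FPKM in control in the authors' deposited tables. Both knockdowns were well below control, HDAC2 knockdown more so. Junb fell in HDAC2 knockdown (-1.82 ± 0.23, q = 4.1e-09 in the authors' deposited table) and in Sp3 knockdown (-0.85 ± 0.12, deposited q = 1.26e-14).

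Jund, the steady Jun gene (mm9 chr8:73221637-73224515), had 59.0 FPKM in HDAC2 knockdown, 34.8 FPKM in Sp3 knockdown and 44.9 FPKM in control in the authors' deposited tables. It was the only member that lay above control in HDAC2 knockdown, by an amount that did not pass (0.078 ± 0.26, 95% interval -0.44 to 0.60, q = 0.251 in the authors' deposited table). In Sp3 knockdown Jund was called lower, per the authors' deposited table (q = 0.00582), and after centring it did not pass (-0.24 ± 0.11, 95% interval -0.46 to -0.014). It passed when only genes of at least 10 FPKM set the centre (-0.28).

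Atf3, a bZIP protein that represses many of its targets as a homodimer, was the least abundant member in control. The gene (mm9 chr1:192994175-193007212) measured 2.15 FPKM in HDAC2 knockdown, 2.83 FPKM in Sp3 knockdown and 4.74 FPKM in control in the authors' deposited tables. Control was again the highest group. Atf3 fell in HDAC2 knockdown (-1.45 ± 0.32, q = 0.00242 in the authors' deposited table) and in Sp3 knockdown (-0.61 ± 0.22, deposited q = 0.00421).

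Shares of the summed AP-1 level were taken within each group. The summed level of the 7 genes was 186 FPKM in HDAC2 knockdown, 154 FPKM in Sp3 knockdown and 259 FPKM in control. Jund made up 31.7% of the sum in HDAC2 knockdown, 22.6% in Sp3 knockdown and 17.3% in control. Junb made up 12.7% in HDAC2 knockdown, 22.0% in Sp3 knockdown and 25.7% in control. The largest shares were thus held by Jund in HDAC2 knockdown, by Jund and Junb in Sp3 knockdown, and by Junb and Fos in control. Fosl2 held 13.6% in HDAC2 knockdown, 19.5% in Sp3 knockdown and 9.90% in control, and Fos held 17.3% in HDAC2 knockdown, 18.3% in Sp3 knockdown and 23.1% in control. Jun took 23.1% of the sum in HDAC2 knockdown, 14.0% in Sp3 knockdown and 19.4% in control. The summed Jun family stood at 2.14 times the summed Fos family in HDAC2 knockdown, 1.48 times in Sp3 knockdown and 1.74 times in control. These shares describe group values without an error and were not tested.

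**Figure D4:**
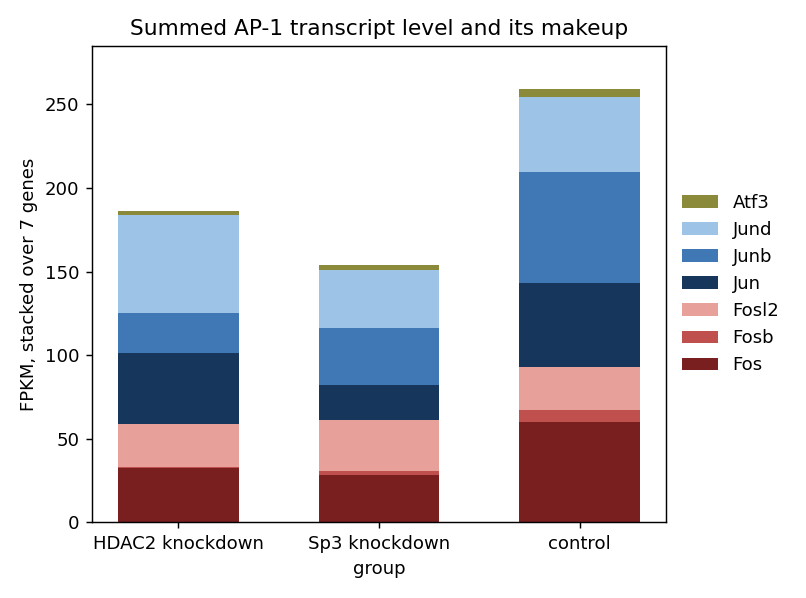
Stacked FPKM of the 7 AP-1 genes in HDAC2 knockdown, Sp3 knockdown and control, with Fos family genes in reds, Jun family genes in blues and Atf3 in olive. The sums are 186 FPKM in HDAC2 knockdown, 154 FPKM in Sp3 knockdown and 259 FPKM in control, and the Junb and Fos blocks are the largest in control.

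HDAC2 knockdown was then set against Sp3 knockdown for each gene, as the difference of the centred values with a normal p adjusted over 13277 genes. Fosb was lower in HDAC2 knockdown than in Sp3 knockdown by a log2 difference of -1.96 ± 0.40 (95% interval -2.74 to -1.18), and Junb by -0.97 ± 0.26 (-1.49 to -0.46), and both passed. Thus 2 of 7 members were lower and 0 higher, where 6.87% of genes were lower and 7.86% higher. At an unadjusted p under 0.05, 4 members were lower and 0 higher, and the share of all genes at that threshold is not given here. With a t distribution of 2 degrees of freedom 0 members passed after adjustment. Over all genes 0 passed there too, so that setting says nothing particular to the members. The Fosb difference was -1.51 without centring and passed there too. That of Junb was -0.52 without centring and did not pass. The other members did not pass. Fos differed by -0.25 (95% interval -0.77 to 0.27), Fosl2 by -0.69 (-1.30 to -0.088), Atf3 by -0.85 (-1.61 to -0.080), Jun by 0.55 (-0.0067 to 1.11) and Jund by 0.31 (-0.25 to 0.88). Without centring Jun was higher in HDAC2 knockdown than in Sp3 knockdown by 1.00, and Jund by 0.76, and both passed there. The error of the shared control enters both standard errors, although it cancels in the difference itself.

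Glial markers differed between the same groups. Over all tested genes, the authors' deposited tables called 24.6% higher and 3.6% lower in HDAC2 knockdown. In Sp3 knockdown the shares were 13.2% higher and 26.1% lower. Gfap, the intermediate filament gene of astrocytes, had 167 FPKM in HDAC2 knockdown, 9.13 FPKM in Sp3 knockdown and 16.7 FPKM in control, and the myelin gene Mbp had 27.8 FPKM in HDAC2 knockdown, 4.97 FPKM in Sp3 knockdown and 8.17 FPKM in control. The neuronal gene Map2 lay at 312 FPKM in HDAC2 knockdown, 308 FPKM in Sp3 knockdown and 311 FPKM in control. Its changes had wide errors (-0.31 ± 1.69 in HDAC2 knockdown and 0.12 ± 1.42 in Sp3 knockdown), so little can be read from these like levels. Among 9 oligodendrocyte lineage markers 7 were higher and 0 lower in HDAC2 knockdown, and of 8 tested in Sp3 knockdown 0 were higher and 7 lower, in the authors' deposited tables, and the summed level was 423 FPKM in HDAC2 knockdown, 129 FPKM in Sp3 knockdown and 224 FPKM in control. The astrocyte list had 4 of 6 tested markers higher and 0 lower in HDAC2 knockdown, and of 7 tested in Sp3 knockdown 0 were higher and 4 lower in the authors' deposited tables (2 higher and 4 lower after centring), with sums of 1382 FPKM in HDAC2 knockdown, 367 FPKM in Sp3 knockdown and 409 FPKM in control. Neuron markers summed to 975 FPKM in HDAC2 knockdown, 1140 FPKM in Sp3 knockdown and 926 FPKM in control, with 0 of 8 called in HDAC2 knockdown and 4 higher and 2 lower in Sp3 knockdown (4 and 0 after centring). Microglia markers were low throughout, with sums of 5.78 FPKM in HDAC2 knockdown, 4.56 FPKM in Sp3 knockdown and 6.45 FPKM in control, no marker at 0 and 0 of 2 tested markers called in either knockdown. Endothelial, mural and fibroblast markers summed to 42.2 FPKM in HDAC2 knockdown, 52.6 FPKM in Sp3 knockdown and 29.7 FPKM in control, with 1 of 8 (Cldn5) at 0 in HDAC2 knockdown. Of 3 tested markers in that list 2 were higher and 0 lower in HDAC2 knockdown and 1 higher and 1 lower in Sp3 knockdown. In such bulk samples fewer cells of a type and less RNA per cell cannot be told apart, and the part of these cells in the AP-1 values was not tested.

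Genes of the pathway around AP-1 were counted from lists, which were chosen with earlier results of these data known. Counts in these lists are to be read beside the shares over all tested genes. In the authors' deposited tables these were 24.6% higher and 3.6% lower in HDAC2 knockdown and 13.2% higher and 26.1% lower in Sp3 knockdown. After centring they were 10.2% higher and 7.59% lower in HDAC2 knockdown and 20.2% higher and 17.6% lower in Sp3 knockdown. Of 9 other immediate early transcription factor genes, 0 were higher and 7 lower in HDAC2 knockdown, and 0 higher and 5 lower in Sp3 knockdown, in the authors' deposited tables. After centring 9 were lower in HDAC2 knockdown and 5 in Sp3 knockdown, with median centred values of -1.61 in HDAC2 knockdown and -0.36 in Sp3 knockdown. Npas4, which acts on inhibitory synapses, fell in HDAC2 knockdown (-3.19 ± 0.26) and in Sp3 knockdown (-0.68 ± 0.11). The zinc finger genes Egr4 (-1.79 ± 0.27 in HDAC2 knockdown and -0.78 ± 0.13 in Sp3 knockdown) and Egr1 (-1.61 ± 0.26 in HDAC2 knockdown and -0.72 ± 0.15 in Sp3 knockdown) fell as well. Egr2 fell in HDAC2 knockdown (-2.40 ± 0.26) and did not pass in Sp3 knockdown (-0.084 ± 0.11, q = 0.128 in the authors' deposited table).

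Among the MAP kinase phosphatases, which switch off the kinases that act on AP-1, 0 were higher and 1 lower of 8 in HDAC2 knockdown and 0 higher and 4 lower in Sp3 knockdown, in the authors' deposited tables. After centring 2 were lower in HDAC2 knockdown and 3 in Sp3 knockdown, with medians of -0.53 in HDAC2 knockdown and -0.41 in Sp3 knockdown. Dusp1, itself an immediate early gene, fell to 10.5 FPKM in HDAC2 knockdown and 15.8 FPKM in Sp3 knockdown, against 26.5 FPKM in control (-1.65 ± 0.24 in HDAC2 knockdown and -0.61 ± 0.12 in Sp3 knockdown). Dusp6 (-0.37 ± 0.12) and Dusp10 (-0.67 ± 0.23) fell in Sp3 knockdown, and Dusp16 was called lower there by the q of 0.0116 in the authors' deposited table but not after centring (-0.45 ± 0.20).

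The MAP kinases and their scaffolds did not move one way. Of 20 tested in HDAC2 knockdown the authors' deposited table had 10 higher and 0 lower, but 1 and 1 after centring, with a centred median of 0.12. Of 22 tested in Sp3 knockdown 6 were higher and 6 lower, per the authors' deposited table, and 9 and 5 after centring, with a median of 0.12 after and -0.012 before centring. In Sp3 knockdown the JNK genes Mapk9 (0.57 ± 0.047) and Mapk10 (0.56 ± 0.048) rose, and the upstream kinase gene Map3k1 fell (-0.81 ± 0.12). The other JNK gene, Mapk8 (-0.35 ± 0.12), and the JNK kinase gene Map2k4 (-0.41 ± 0.12) fell in Sp3 knockdown, and both were chosen after their values were seen.

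Factors that act on the Fos and Jun promoters also went both ways. Their shares called in the authors' deposited tables were near those over all tested genes. In HDAC2 knockdown 4 of 18 were higher and 1 lower, per the authors' deposited table (1 and 1 after centring, median -0.074 after and 0.24 before centring). In Sp3 knockdown 2 were higher and 4 lower, per the authors' deposited table (4 and 2 after centring, median 0.062 after and -0.071 before centring). Mef2a rose in HDAC2 knockdown (0.73 ± 0.24). The lower factor there was serum response factor, Srf, named after its values were seen, at 6.59 FPKM in HDAC2 knockdown and 9.91 FPKM in control in the authors' deposited table (q = 0.0445). Mef2c rose in Sp3 knockdown (0.85 ± 0.17), where the CREB coactivator gene Crtc3 (-0.64 ± 0.15) and Stat3 (-0.40 ± 0.070) fell.

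Calls among the other bZIP genes related to AP-1 were few. Those in HDAC2 knockdown were all higher, at a share near that over all tested genes, and those in Sp3 knockdown were all lower. Over all tested genes, 24.6% were called higher in HDAC2 knockdown and 26.1% lower in Sp3 knockdown. Of 8 tested in HDAC2 knockdown the authors' deposited table had 2 higher and 0 lower (1 and 0 after centring), and of 7 tested in Sp3 knockdown 0 were higher and 3 lower (0 and 2 after centring). Their centred medians were -0.042, or 0.27 before centring, in HDAC2 knockdown and -0.16, or -0.30 before centring, in Sp3 knockdown. Maf was called higher in HDAC2 knockdown by the q of 0.0183 in the authors' deposited table but not after centring (0.54 ± 0.30). Jdp2, whose protein pairs with c-Jun and represses (-0.83 ± 0.23), and Maff (-0.86 ± 0.24) fell in Sp3 knockdown.

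Genes described as AP-1 targets showed no common direction. Of 10 tested in each comparison, 4 were higher and 1 lower in HDAC2 knockdown and 3 higher and 2 lower in Sp3 knockdown in the authors' deposited tables, and the centred medians were 0.24 in HDAC2 knockdown and 0.23 in Sp3 knockdown. Cd44, an adhesion receptor gene, had 46.8 FPKM in HDAC2 knockdown, 5.34 FPKM in Sp3 knockdown and 4.10 FPKM in control (3.20 ± 0.29 in HDAC2 knockdown and 0.51 ± 0.14 in Sp3 knockdown), and astrocytes express it too. Gja1, the connexin gene of astrocytes, rose in HDAC2 knockdown (1.42 ± 0.29) and fell in Sp3 knockdown (-0.53 ± 0.11). Penk, the proenkephalin gene, rose in HDAC2 knockdown (1.09 ± 0.39) and in Sp3 knockdown (1.62 ± 0.31), and the cell cycle gene Ccnd1 fell in Sp3 knockdown (-0.54 ± 0.13).

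Of 7 tested genes of neuronal injury and JNK-linked apoptosis, 1 was higher and 1 lower in HDAC2 knockdown and 0 were higher and 5 lower in Sp3 knockdown in the authors' deposited tables. After centring 0 were higher and 3 lower in HDAC2 knockdown (median -0.50), and 0 higher and 4 lower in Sp3 knockdown (median -0.54). Bbc3, which encodes the death protein Puma, was lower in Sp3 knockdown (-1.37 ± 0.18), and in HDAC2 knockdown it was lower only after centring (-0.79 ± 0.26, q = 0.146 in the authors' deposited table). Ddit3, the stress gene that encodes CHOP, fell in HDAC2 knockdown (-1.18 ± 0.25) and in Sp3 knockdown (-0.72 ± 0.13). Hrk (-0.54 ± 0.11) and Bcl2l11 (-0.75 ± 0.19), which encode BH3-only death proteins, fell in Sp3 knockdown. Hrk was also lower in HDAC2 knockdown after centring (-0.87 ± 0.24, q = 0.0579 in the authors' deposited table).

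**Figure D5:**
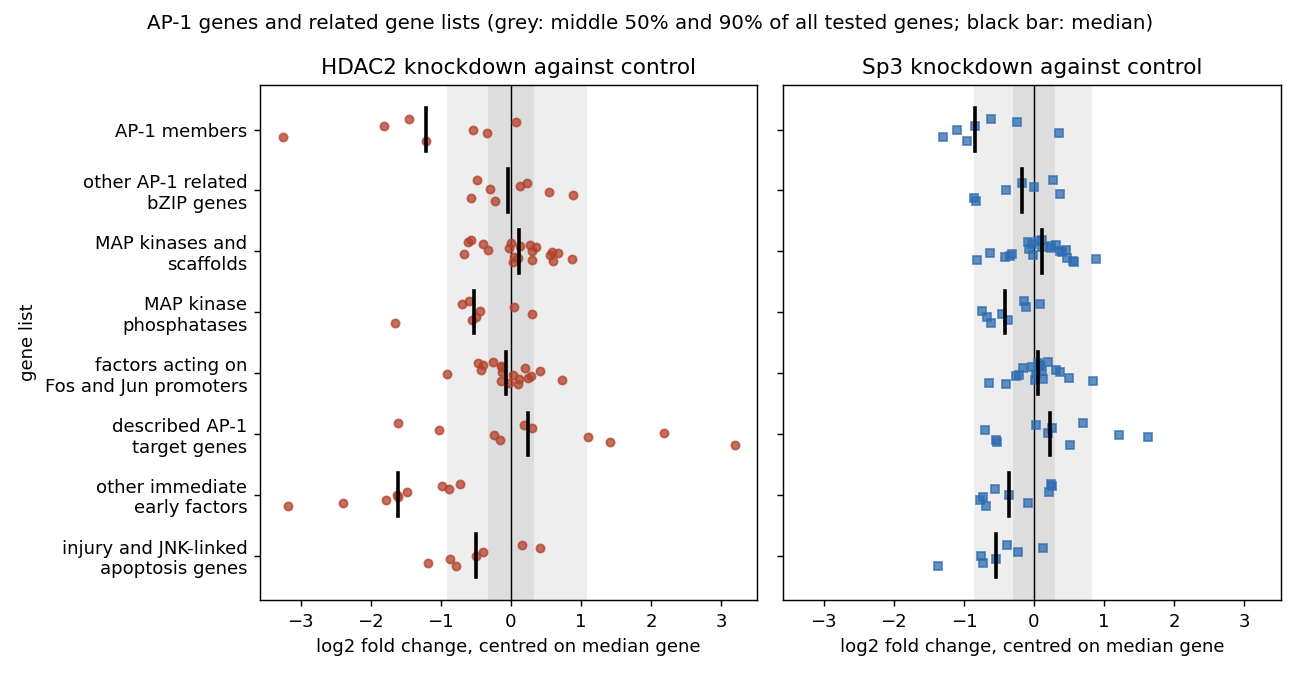
Centred log2 fold change of each tested gene by list, HDAC2 knockdown against control on the left and Sp3 knockdown against control on the right, with black bars for list medians and grey bands for the middle 50% and 90% of all tested genes. The AP-1 genes have medians of -1.20 in HDAC2 knockdown and -0.85 in Sp3 knockdown, and the other immediate early genes of -1.61 in HDAC2 knockdown and -0.36 in Sp3 knockdown.

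The genes whose pattern was most like each member's were found among 11267 genes of at least 1 FPKM in all 3 groups, by the distance between pairs of centred log2 values, which describes 3 groups and was not tested. Nearest to Fosb were Arc (distance 0.49), Npas4 (0.62) and Mir409 (0.78), all farther away than the nearest genes of any other member. Junb had Gdf10 (0.037), Egr4 (0.074) and Arf4 (0.095) nearest, and Fos had Nudt10 (0.026), Snord38a (0.050) and Masp2 (0.072). The list for Atf3 was Mir1906-1 (0.034), Cks1b (0.053) and Tcea1 (0.092), and that for Jun was Fam129c (0.0085), Cldn10 (0.033) and Iyd (0.043). Fosl2 lay closest to Aldoart1 (0.0073), Gmppa (0.015) and Il1rapl1 (0.016), and Jund to Osgin2 (0.0091), Ppp1cb (0.0099) and Brcc3 (0.011).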

How the data were processed

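Libraries came from total RNA (TruSeq), per the labels. Tools named in the submitters' processing notes are Cuffdiff, TopHat and Bowtie, with build mm9. No version, annotation, strand setting or filter is stated in the sources used here. Per the file headers, the authors deposited for each knockdown against control 1 FPKM per group, a p-value, a q-value, the log2 fold change and a test score. Control FPKM is the same in both tables for all 23235 genes.

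The standard error is the log2 fold change over the statistic, whose sign is opposite in the files and was reversed, and an error over 5 was treated as missing. The difference between knockdowns was divided by the root of the summed squared errors. Calls are status OK with q under 0.05. For centred values the median over genes of at least 1 FPKM in either group was subtracted and the shifted statistic given a normal p with Benjamini-Hochberg adjustment over all tested genes (Python 3.11.15, scipy 1.17.1). The functions were tested on simulated data. Alternatives varied thresholds, scaling, filters, pseudocounts and the reference distribution.

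The members and lists were chosen with earlier results of these data known. Named genes are the members, both targets, up to 4 called genes of each list by smallest p, the 3 nearest genes of each member and defining markers, and some genes that this rule names are not reported here. Map2 was matched by its older name. Promoters come from RefSeq, GRCm38.p6, and no position from that build was joined to the mm9 tables. Locus overlaps were checked, and no member shares its locus with another gene. Proteins were not used here.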

Additional observations from a re-analysis of the deposited data

Results flagged for a closer look

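After centring, the effects of the knockdowns differed for 2 members by a test of the difference itself. The centred log2 difference, HDAC2 knockdown minus Sp3 knockdown, was -1.96 for Fosb, with centred values of -3.26 in HDAC2 knockdown and -1.30 in Sp3 knockdown. It was -0.97 for Junb, with -1.82 in HDAC2 knockdown and -0.85 in Sp3 knockdown. Without centring the Fosb difference was -1.51 and passed, whereas that of Junb was -0.52 and did not pass. Without values per library, no sample could be examined for standing apart from its group.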

How the results depend on the processing

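Counts of called members held under q thresholds of 0.01 and 0.1, a BH adjustment of the deposited p within each table and a filter of 1 FPKM. Centring or upper-quartile scaling moved the members called higher in Sp3 knockdown to 1, which is Fosl2. Requiring an absolute log2 fold change of at least 1 left 3 members lower in Sp3 knockdown and 3 in HDAC2 knockdown. With a t distribution of 2 degrees of freedom in place of the normal, 0 members were lower in HDAC2 knockdown, 0 in Sp3 knockdown and 0 differed between the knockdowns. At an unadjusted p under 0.05 that test had 2, 4 and 1 members. Over all genes it called 81 in HDAC2 and 73 in Sp3 knockdown, every such gene being at 0 FPKM in a group. For the difference between knockdowns it called 0 of all genes. The difference between knockdowns reversed for Fos without centring (0.20), where it passed in neither form. Without centring 3 members differed in place of 2, and the set changed. Fosb passed in both forms, Junb no longer passed, and Jun and Jund newly passed, both higher in HDAC2 knockdown. Over the checks of single members, 105 were counted as the same, 14 no longer passed, 4 newly passed, 2 moved and 1 reversed. Of the 14 losses, 12 were under the t distribution. The 105 include 14 checks with a pseudocount of 0.1 FPKM and 12 with 1 FPKM, which have no p-value. Those were counted as the same where the value moved by less than its standard error. The rest of the 105 kept direction and side of the threshold. Leaving out a replicate was not run, since it needs values per library. No paired analysis was possible because the deposited columns hold 1 value per group and carry no replicate number. Depth is unknown, so no floor can be set for Fosb at 0.953 FPKM in HDAC2 knockdown.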

Other observations

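The 7 loci in the deposited table (mm9) run from 1840 bases for Junb to 21368 bases for Fosl2, all shorter than the median of 25923 bases over 13357 genes tested in both tables. Among ranked genes, 103 of 13481 had a lower centred value than Junb in HDAC2 knockdown and 202 a lower value than Atf3, whereas 368 of 13539 had a lower value than Jun in Sp3 knockdown.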
